A study of Gallus gallus with 10 samples.

Results

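The ovalbumin family of the chicken oviduct was examined in white isthmus tissue as 3 genes, OVA (ovalbumin, ENSGALG00000012869), OVALY (ovalbumin-related protein Y, ENSGALG00000019551) and OVALX (ovalbumin-related protein X, ENSGALG00000043252). They are the 3 rows whose gene symbol is OVA, OVALY or OVALX among the 17617 rows of the expression table. The tissue came from dwarf white hens late in lay that are labelled as wild type, 5 laying eggs with translucent shells and 5 laying eggs with opaque shells. One library of captured mRNA was made per hen, and no treatment was given to either group. The translucent hens were picked for thin eggshell membranes and the opaque hens for normal ones, so shell translucency and membrane quality cannot be told apart in this comparison. For the eggs in the isthmus at sampling, the paper reports membrane thickness without a significant difference between the groups. The question was which genes of the isthmus, where the eggshell membranes are laid down, differ between the groups.

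Ovalbumin is the main protein of egg white and is made by the tubular gland cells of the magnum, the oviduct segment just before the isthmus, under the control of estrogen and progesterone. It belongs to clade B of the serpins, a family named for serine protease inhibitors, but does not itself inhibit proteases. OVALY and OVALX are related proteins of egg white encoded by neighbouring genes, and OVALX protein binds heparin and has antibacterial activity. In the RefSeq annotation of the chicken assembly GRCg7b, the 3 genes lie side by side in the order OVA, OVALY, OVALX, within a row of other clade B serpin genes. The genome build of the deposited table is not given in the sources used here, so no coordinates are printed.

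Between 15245166 and 19014793 reads per translucent hen and between 11601232 and 17309289 per opaque hen were counted on genes, so depth differed with the group. A level of 3 reads, taken as the floor, was between 0.158 and 0.259 CPM (counts scaled to library size). COL10A1, the collagen gene typical of the isthmus, was read at 26019 to 32357 FPKM in the 10 hens and had the second highest mean of all genes. On the first principal component of all genes, 8 hens lay between -11.9 and 36.4, whereas Translucent-1 was at -54.7 and Opaque-5 at -78.3. Group differences and correlations are therefore also given without these hens.

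OVA was read in every hen, at levels that ranged over 6178-fold. In FPKM, a unit corrected for gene length and depth, OVA was at 5375, 24.8, 9.60, 801 and 275 in Translucent-1 to Translucent-5. In Opaque-1 to Opaque-5 it was at 31.3, 109.55, 0.91, 0.87 and 33.3 FPKM. Translucent-1, Translucent-4 and Translucent-5 lay above every opaque hen, Opaque-3 and Opaque-4 lay below every translucent hen, and the other 5 hens overlapped. These values rest on 191322, 711, 274, 26693 and 8428 reads in the translucent hens, against 1013, 2408, 20, 19 and 725 reads in the opaque hens. OVA took 1.01% of all reads in Translucent-1, where it was the 8th gene by FPKM, while in Opaque-3 it stood at place 11976. The mean was 1297 ± 2302 FPKM in translucent hens and 35.2 ± 44.4 FPKM in opaque hens (SD, n = 5 each), and the medians were 275 and 31.3 FPKM. Translucent-1 alone held 84.1% of the OVA reads of its group. In bulk tissue, a lower number of ovalbumin-producing cells and less OVA RNA per cell cannot be told apart.

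OVALY ran through the hens much as OVA did, at a lower level, with the 4 highest hens in the same order. It was at 219.9, 4.51, 1.44, 47.9 and 16.0 FPKM in Translucent-1 to Translucent-5. In Opaque-1 to Opaque-5 it was at 3.41, 6.41, 0.04, 0.09 and 0.74 FPKM. The same 3 translucent hens that led in OVA lay above every opaque hen, and Opaque-3, Opaque-4 and Opaque-5 lay below every translucent hen. The reads behind these values were 8217, 136, 43, 1675 and 515 in the translucent hens, against 116, 148, 1, 2 and 17 in the opaque hens. Opaque-3 and Opaque-4 were therefore under the floor of 3 reads. In CPM, Translucent-1 had 5076 times the OVALY of Opaque-3, with a 95% exact counting interval from 911 to 200513, since the divisor is a single read. The mean was 58.0 ± 92.4 FPKM in translucent hens and 2.14 ± 2.76 FPKM in opaque hens (SD, n = 5 each). Translucent-1 held 77.6% of the OVALY reads of its group.

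OVALX was close to absent from these libraries. It had 5 reads in Translucent-1 and 20 reads in Translucent-5, which are 0.20 and 0.91 FPKM, and 0 reads in the other 3 translucent hens and in all 5 opaque hens. With 0 reads, a level of up to 0.127 to 0.148 FPKM in those translucent hens and up to 0.131 to 0.195 FPKM in the opaque hens would have gone unread at the floor of 3 reads. A read of OVALX was found in 2 of 5 translucent hens and 0 of 5 opaque hens (Fisher's exact test, two-sided, p = 0.444), and the shallower opaque libraries had the higher floors. The hen with the most OVALX was not the hen with the most OVA or OVALY. OVALX was too low for the filter on low counts, so no fold change is given for it.

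**Figure D1:**
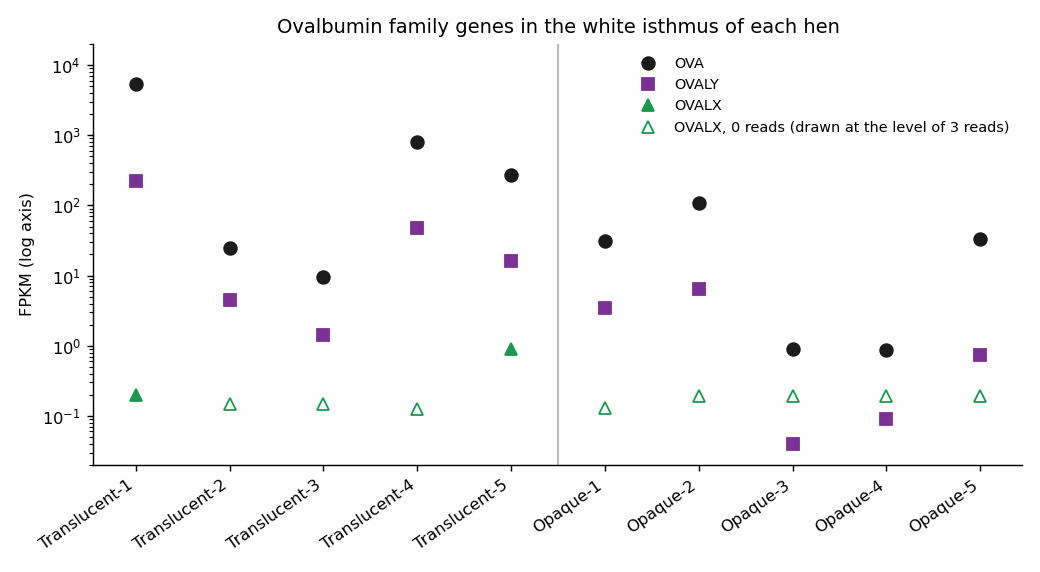
FPKM on a log axis of OVA (circles), OVALY (squares) and OVALX (filled triangles) in each hen, translucent hens left of the line and opaque hens right of it. Open triangles stand at the level of 3 reads where OVALX had 0 reads. OVA spans 0.87 to 5375 FPKM, OVALY lies below it in all 10 hens, and OVALX is read only in Translucent-1 and Translucent-5.

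Counts of the 3 genes were whole numbers in every hen, whereas 6.73% of all counts in the table were fractional because reads were divided among genes. No division of reads between the paralogs was thus visible. Whether reads of one paralog were counted on another cannot be told from the table. The part of such reads in the ratios that follow, and in the correlation of OVA with OVALY, was not tested.

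Set against OVA in the same hen, OVALY was the minor gene throughout. Its FPKM was 4.09% of that of OVA in Translucent-1, with a 95% exact (Clopper-Pearson) interval of 4.001 to 4.18%, and 18.2% in Translucent-2 (15.1 to 21.9%). It was 15.0% in Translucent-3 (10.6 to 20.7%), 5.98% in Translucent-4 (5.69 to 6.28%) and 5.82% in Translucent-5 (5.31 to 6.36%). Translucent-2 and Translucent-3, the translucent hens with the least OVA, thus had the highest shares of OVALY, and their intervals did not overlap those of the other 3. In the opaque hens, the share was 10.9% in Opaque-1 (8.92 to 13.2%), 5.85% in Opaque-2 (4.93 to 6.91%) and 2.22% in Opaque-5 (1.29 to 3.60%). It was 4.396% in Opaque-3 and 10.3% in Opaque-4, where 1 and 2 OVALY reads leave intervals of 0.115 to 29.8% and 1.13 to 41.6%. These intervals hold counting error alone and treat each read as a separate molecule. Duplicate reads made by PCR were not told apart from separate molecules, so the intervals may be too narrow.

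OVA was between 5.49 times (Translucent-2) and 44.9 times (Opaque-5) the FPKM of OVALY. OVALY lay below OVA in 10 of 10 hens, by a mean of -3.85 ± 0.93 on the log2 scale (SD, n = 10; exact sign-flip permutation test, two-sided, p = 0.00195, the smallest the test allows). Translucent-1, Translucent-4, Translucent-5 and Opaque-2, the 4 hens with the most OVA, had shares of 4.09 to 5.98%. Among the other 4 hens with at least 3 OVALY reads, at 9.60 to 33.3 FPKM of OVA, the shares ran from 2.22 to 18.2%. OVA is the divisor of the share, so the 2 quantities are not independent.

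**Figure D2:**
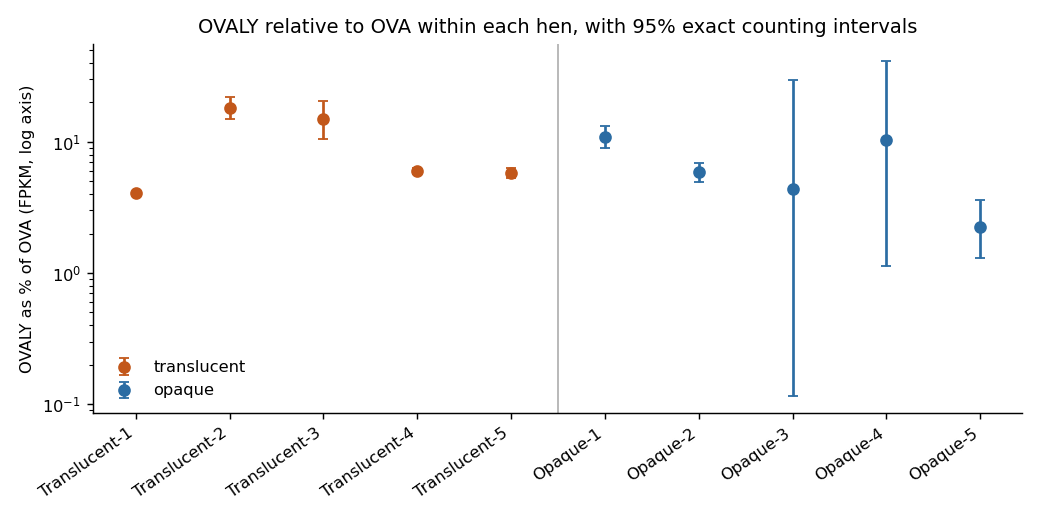
OVALY as a percentage of OVA (FPKM, log axis) in each hen, translucent hens left of the line and opaque hens right of it. Points are the ratios and bars the 95% exact counting intervals. Shares lie between 2.22% and 18.2%, the groups overlap, and the bars of Opaque-3 and Opaque-4 are wide because they rest on 1 and 2 OVALY reads.

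The OVALY share did not separate the groups. It averaged 9.82 ± 6.34% in translucent hens and 6.75 ± 3.78% in opaque hens (SD, n = 5 each), with medians of 5.98% and 5.85%. On the log2 scale the mean ratio was -3.59 ± 0.94 in translucent hens and -4.11 ± 0.95 in opaque hens, a difference of 0.52 (exact permutation test, two-sided, p = 0.413). The sign of this difference turned to -0.86 with 1 FPKM added to both genes (exact permutation p = 0.389) and to -0.0208 with 0.1 FPKM added (exact permutation p = 0.960). An added constant draws the 2 genes together where both are low, as in Opaque-3 and Opaque-4. Without these hens and with nothing added, the difference was 0.67 (exact permutation p = 0.411). With p-values this high, no direction can be given.

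OVALX was a far smaller share still. It was 0.00372% of OVA in Translucent-1 (95% exact interval 0.00120 to 0.00860%) and 0.331% in Translucent-5 (0.204 to 0.517%), and these intervals do not overlap. Relative to OVALY, OVALX was 0.0909% in Translucent-1 and 5.69% in Translucent-5. Translucent-4, with 26693 OVA reads and 0 OVALX reads, would have had 63.3 OVALX reads at the ratio of Translucent-5, and its floor allows up to 0.0158% of OVA. In the other hens without an OVALX read, 3 reads would be 0.176 to 22.4% of OVA, so that in Opaque-3 and Opaque-4 even a large share would have been missed. SERPINB10B, another gene of the same row of serpins, also had its reads mainly in Translucent-5, with 30 reads there and 0 to 2 in each of the other 9 hens. The leukocyte markers summed to 431 FPKM in Translucent-5, against 194 to 270 FPKM in the other translucent hens and 104 to 315 FPKM in the opaque hens, and none of the 5 markers was at 0 throughout. PTPRC, which marks leukocytes, was at 13.5 FPKM in Translucent-5 and at most 6.43 FPKM elsewhere. The red blood cell, liver and glia and neuron markers also had their highest sums of the 10 hens in Translucent-5, at 279, 99.6 and 32.1 FPKM. Nearly all of that liver sum was APOA1 (apolipoprotein A1), at up to 97.7 FPKM, while ALB (albumin) was at most 0.16 FPKM in translucent hens. Of the red blood cell markers, SLC4A1 did not share the pattern, at 2.36 to 6.06 FPKM in translucent and 5.77 to 17.4 FPKM in opaque hens. Nor did SYP of the glia and neuron markers, at 0.71 to 2.74 FPKM in translucent and 2.65 to 3.89 FPKM in opaque hens. Among the liver markers, ALB, FGB and VTG2 had their highest values in opaque hens, at 0.36, 1.38 and 0.21 FPKM. The part of any of these cell types in the OVALX reads was not tested.

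Levels of OVA and OVALY varied together over hens. Pearson's r of log2 CPM was 0.976 (permutation test, p = 3.0e-05) and Spearman's rank correlation was 0.915 (permutation p = 0.00056) over the 10 hens. Of the 3 pairs of family members, this was the only one with a value, because OVALX was at 0 in 8 hens, so no adjustment over pairs was made. Taken as deviations from the group means, so that a group difference cannot enter, r was 0.975 (permutation p = 0.00023). On the scale of log2 CPM after TMM scaling, Translucent-1 and Opaque-3 lay farthest from the median of OVA, and without them r was 0.944 (permutation p = 0.00119). With Opaque-4, the lowest hen in FPKM, left out in place of Opaque-3, r was 0.948 (permutation p = 0.00103), and without Translucent-1 and Opaque-5 it was 0.988 (permutation p = 6.0e-05). The SD over hens was 3.99 for log2 FPKM of OVA and 3.82 for that of OVALY, while the SD of their log2 ratio was 0.93.

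**Figure D3:**
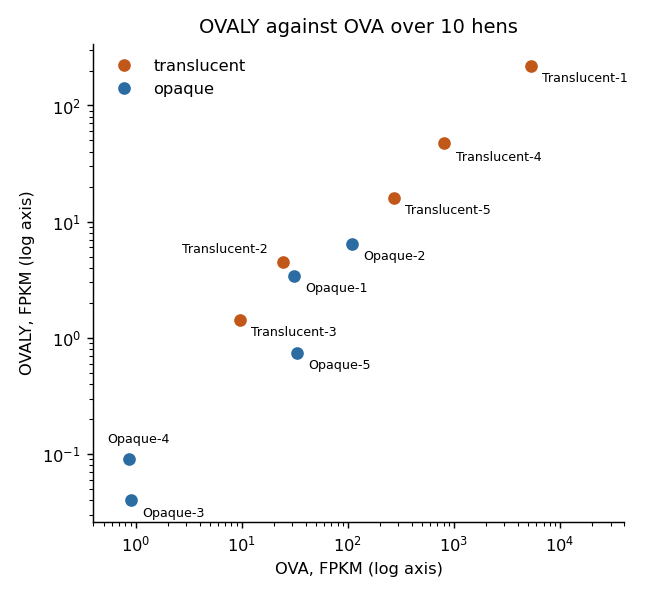
OVALY against OVA in FPKM, both axes logarithmic, with 1 point per hen and translucent and opaque hens in separate colors. Translucent-1 lies at the top right, Opaque-3 and Opaque-4 at the bottom left and the other hens on a line between, and Translucent-2 and Opaque-5 have OVALY at 4.51 and 0.74 FPKM beside OVA at 24.8 and 33.3 FPKM.

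Among 10498 tested genes with a symbol, OVALY was the gene most like OVA over the 10 hens, and OVA the gene most like OVALY. Next for both was PLBD1, a lysosomal phospholipase B domain protein, with r = 0.921 to OVA and 0.874 to OVALY. PLBD1 was at 157, 124, 74.3, 139 and 159 FPKM in Translucent-1 to Translucent-5, against 98.3, 118, 72.8, 71.5 and 108 FPKM in Opaque-1 to Opaque-5. Its lowest hens, Translucent-3, Opaque-3 and Opaque-4, were also the lowest 3 in OVA, but PLBD1 spanned only 71.5 to 159 FPKM. The other near genes of OVA were GPM6B, a membrane glycoprotein of the proteolipid family (r = 0.840), a locus described as the proteasome ATPase PSMC4 (0.821) and SRGAP1, a protein of Slit-Robo signaling (0.807). Those of OVALY were SHISA5, a membrane protein of the endoplasmic reticulum (r = 0.823), the same PSMC4 locus (0.820) and RGS4, a regulator of G-protein signaling (0.819). An r over 0.9 was reached by 2 genes for OVA and by 1 for OVALY. These are the highest of many correlations and carry no test.

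Between the groups, OVA and OVALY had higher means in translucent hens, but neither passed the test across all genes. The quasi-likelihood test of edgeR gave OVA a log2 fold change, translucent over opaque, of 5.39 ± 1.84 (SE) and OVALY one of 4.94 ± 1.46, each with a Benjamini-Hochberg adjusted p of 0.9999. Of the 3 genes, 2 could be tested, and 0 of these were called, which required an adjusted p under 0.05 and a log2 fold change beyond 1 in either direction. Of all 12858 genes tested, 0 were called (0%), with 282 at an unadjusted p under 0.05, and DESeq2 called 4, none of them in this family. OVA and OVALY both lay among the 55 genes (0.428%) that differed at least 2-fold with an unadjusted p up to 0.05, 27 of which (0.21%) were higher in translucent hens. By unadjusted p-value, OVALY stood at place 24 and OVA at place 56. The median log2 fold change of all tested genes was -0.01, and 48.6% were positive.

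Log2 CPM of OVA differed by 4.28 between the group means (exact permutation test, two-sided, p = 0.103) and that of OVALY by 4.36 (exact permutation p = 0.0397). The smallest p that 5 hens against 5 allow is 0.00794. The geometric means were 194.9 FPKM in translucent hens and 9.80 FPKM in opaque hens for OVA, and 16.1 and 0.566 FPKM in the same groups for OVALY. Opaque-3 and Opaque-4 enter the OVALY values with 1 and 2 reads, under the floor of 3 reads. The OVALY geometric mean of opaque hens and the log2 CPM difference of 4.36 thus rest in part on levels too low to measure. The fold changes of edgeR compare average levels, to which Translucent-1 gave most of the reads. Without that hen the log2 fold change of edgeR was 2.93 for OVA (adjusted p = 0.990, unadjusted p = 0.0618) and 2.997 for OVALY (unadjusted p = 0.0246). Without Translucent-1 and Opaque-5, it was 2.96 for OVA and 2.81 for OVALY.

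**Figure D4:**
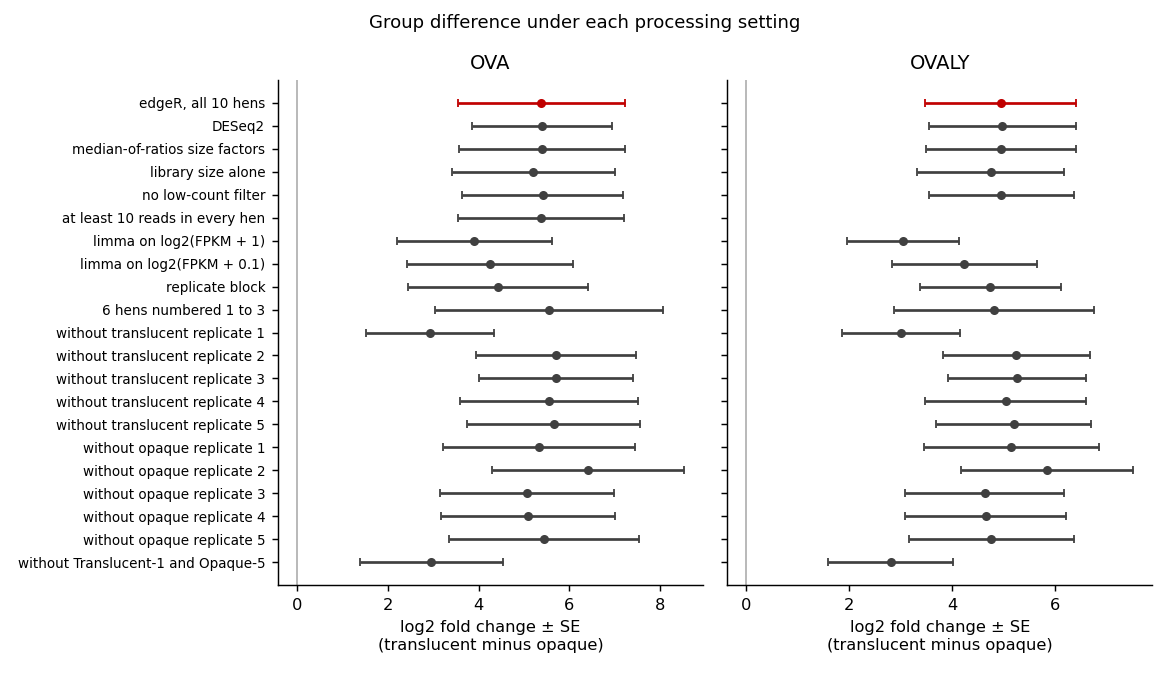
Log2 fold change, translucent minus opaque, of OVA (left) and OVALY (right) in the fit of all 10 hens (red) and under each alternative (grey), with bars of 1 SE. All values lie right of 0, between 2.93 and 6.41 for OVA and between 2.81 and 5.84 for OVALY, and the lowest values come from the settings without Translucent-1. With at least 10 reads required in every hen, OVALY is not tested.

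The spread of OVA and OVALY over hens was among the widest of all genes tested. The SD of log2 CPM was 3.998 for OVA, the second of 12858 genes, and 3.46 for OVALY, the 8th, where the median gene had 0.34. Within the groups it was 3.50 for OVA (7th) and 2.74 for OVALY (21st), where the median gene had 0.35. The difference of 4.28 between the group means of OVA thus stood against an SD of 3.50 within groups, and the difference of 4.36 for OVALY against an SD of 2.74.

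Other egg white genes that could be tested were read at far steadier levels in the same hens. OVA was 4.26, 0.0327, 0.0162, 1.15 and 0.415% of the FPKM of SPINK7 (ovomucoid, a protease inhibitor of egg white) in Translucent-1 to Translucent-5. In Opaque-1 to Opaque-5 it was 0.0505, 0.202, 0.00156, 0.00146 and 0.0354% of SPINK7. The highest hen had 2.33 times the FPKM of the lowest for SPINK7 and 2.70 times for TF (ovotransferrin, the iron-binding protein of egg white). The widest range among the tested egg white genes was 7.16-fold, for AVD (avidin). MUC6, AVR2, BPIFB2 and VMO1 were not tested, and ran from 0 to at most 0.58 FPKM. OVA reached 81.0% of TF in Translucent-1, and was 0.0199% of it in Opaque-4. Of 27 egg white genes listed, OVA and its relatives left out, 17 were found and 13 tested, and 0 were called, with 9 positive and 4 negative log2 fold changes and a median of 0.20. The 4 with the highest levels were SPINK7 (79492 ± 26847 FPKM in translucent and 65632 ± 16153 FPKM in opaque hens), TF (4653 and 4890 FPKM), HEP21, a small egg white protein (784 and 674 FPKM) and CST3, the protease inhibitor cystatin C (705 and 626 FPKM). Their r with OVA over hens ran from 0.30 (TF) to 0.58 (SPINK7), and over the 13 genes from -0.33 (SPINK5) to 0.62 (LYZ, lysozyme).

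The magnum markers, egg white genes other than OVA, were therefore present in every hen. With 6 of 11 found and none at 0, they summed to 64425 to 134406 FPKM in translucent hens and 62691 to 100863 FPKM in opaque hens, most of it from SPINK7. The sum was highest in Translucent-1, the hen with the most OVA, and next highest in Opaque-5, where OVA was at 33.3 FPKM. Opaque-3 and Opaque-4, with OVA under 1 FPKM, had sums of 63265 and 64668 FPKM, inside the range of the other opaque hens. Because SPINK7 makes up most of these sums, they say little of the other markers. LYZ and OVST (ovostatin) were at their lowest of all hens in Opaque-4, at 209 and 82.7 FPKM. In the same hen, TF was inside the range of the other opaque hens, at 4380 FPKM, and AVD (avidin) above it, at 62.8 FPKM. In Opaque-3, LYZ was at 446 FPKM, inside the range of the other opaque hens. Translucent-1 also had the lowest sum of the isthmus gland markers found, 5 of 6 listed. This sum was 1655 FPKM, against 3287 to 4374 FPKM in the other translucent hens. Opaque-5 had the next lowest, at 1768 FPKM against 2340 to 5319 FPKM in the other opaque hens. Most of the sum was LOXL2 (lysyl oxidase like 2), at 1215 to 3991 FPKM in translucent and 1279 to 4877 FPKM in opaque hens. COL10A1, the collagen gene typical of the isthmus, was not in the sum and was read at 26019 to 32357 FPKM over all hens. Smooth muscle markers summed to 286 FPKM in Translucent-1, against 65.1 to 137 FPKM in the other translucent hens and 121 to 194 FPKM in the opaque hens. Shell gland markers had their highest sums in Opaque-5, at 443 FPKM, and Translucent-1, at 390 FPKM. They summed to 197 to 374 FPKM in the other translucent hens and 157 to 334 FPKM in the other opaque hens. Most of this sum was CA2 (carbonic anhydrase 2), at 196 to 387 FPKM in translucent and 152 to 427 FPKM in opaque hens. The other shell gland markers found were at most 11.65 FPKM (MEPE, in an opaque hen), so the sums say little of them. Of 10 shell gland markers listed, 6 were found and 4 tested, and 0 were called, with 0 positive and 4 negative log2 fold changes. The part of magnum tissue, or of these shifts in other markers, in the OVA and OVALY reads was not tested.

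**Figure D5:**
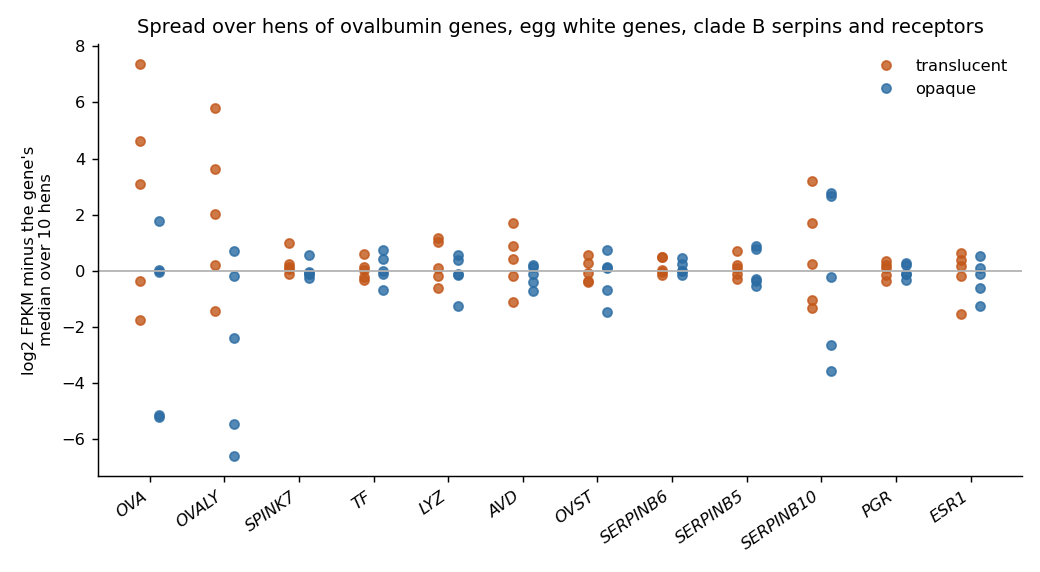
Log2 FPKM minus the median of the same gene over the 10 hens, for OVA and OVALY, other egg white genes, other clade B serpins and 2 steroid receptors, with 1 point per hen and translucent left of opaque for each gene. OVA reaches from -5.21 to 7.38 and OVALY from -6.62 to 5.81, while SPINK7 stays between -0.24 and 0.98. The row with the symbol SERPINB10 is the next widest.

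Genes of the receptors and factors known to act on the ovalbumin promoter did not pass the test between the groups. Of 8 listed, 8 were found and 7 tested, and 0 were called, with 5 positive and 2 negative log2 fold changes. PGR, the progesterone receptor, was at 111 ± 21.5 FPKM in translucent hens and 107.5 ± 18.6 FPKM in opaque hens, and its highest hen had 1.65 times the lowest. NR2F2 and NR2F1 are orphan receptors known as COUP factors from their binding to the ovalbumin promoter. NR2F2 averaged 50.6 FPKM in translucent hens and 51.2 FPKM in opaque hens, and NR2F1 averaged 24.4 and 16.5 FPKM in the same groups. ESR1, the estrogen receptor, ranged 4.56-fold over hens. It was lowest in Translucent-1, the hen with the most OVA, at 4.74 FPKM, and next lowest in Opaque-5, at 5.85 FPKM. The relation of ESR1 to OVA over hens was not tested.

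Among the other clade B serpins tested, the widest range over hens was 109-fold, against 6178-fold for OVA. Of 6 other clade B serpins with a SERPINB symbol in the table, 3 were tested and 0 called, with a median log2 fold change of 0.06. A row without a symbol, SERPINB10A in RefSeq, was not counted here and was at 0 to 0.13 FPKM. SERPINB6, an inhibitor of intracellular proteases, averaged 47.6 ± 10.2 FPKM in translucent hens and 45.5 ± 8.04 FPKM in opaque hens, and SERPINB5 (maspin, which does not inhibit proteases) 31.5 and 32.9 FPKM. The row with the symbol SERPINB10, which the table describes as serpin B2 and which lies next to OVA, was at 12, 0.63, 1.53, 0.52 and 4.29 FPKM in Translucent-1 to Translucent-5, against 0.11, 1.11, 0.21, 8.90 and 8.28 FPKM in Opaque-1 to Opaque-5. It was thus highest in Translucent-1, as OVA was, and next highest in Opaque-4, where OVA was at its lowest. In Opaque-3, with OVA at 0.91 FPKM, it was at 0.21 FPKM. The row with the symbol SERPINB11, described as serpin B12, lies on the far side of OVALX and was at 0.19 to 1.15 FPKM in translucent hens and 0.04 to 0.45 FPKM in opaque hens. Of 9 serpins of other clades, 5 were tested and 0 called, with a median log2 fold change of 0.08, and the 4 highest, SERPINF2 (antiplasmin), SERPINF1 (pigment epithelium-derived factor), SERPINH1 (a chaperone of collagen) and SERPINE2 (protease nexin), differed between hens by at most 3.82-fold. A further locus that StringTie assembled, described as similar to ovalbumin-related protein Y but without one of the 3 symbols, had 0 to 20 reads in translucent hens and 2 to 10 in opaque hens.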

How the data were processed

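White isthmus RNA of 5 translucent and 5 opaque hens was sequenced by the authors, 1 library per hen. Per the labels and methods, reads were filtered with fastp, freed of rRNA with Bowtie2, aligned with HISAT2, assembled with StringTie and quantified with RSEM. The authors deposited expected counts per gene, not normalized, which were rounded here. The authors also deposited FPKM, corrected for gene length and depth, which was used to set one gene against another. The genome build is not given in the sources used here.

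The groups were compared with edgeR 4.0.16 in R 4.3.3 (TMM, filterByExpr, quasi-likelihood test, Benjamini-Hochberg adjustment over all 12858 genes tested), with DESeq2 1.42.0 and limma 3.58.1 as alternatives. The SE was taken as the absolute log2 fold change over the square root of F. Ratios were tested by exact permutation over hens, and correlations of log2 CPM (prior count 2) with 100000 permutations in Python 3.11.15. The fitting steps were tested on simulated data.

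Named were the 3 family members, the 5 genes most correlated with each, and, from the lists of egg white genes, promoter factors, clade B serpins and other serpins, in which no gene was called, the 4 of each with the highest mean FPKM, of which 1 is not reported here. Other genes were added after their values were seen. Members and lists were chosen with earlier results of these data known. Replicate numbers shared by the groups belong to different animals, and a fit with them as a block was run only as an alternative. Of 13961 NCBI gene numbers in the table, 13642 were found in the RefSeq list.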

Additional observations from a re-analysis of the deposited data

Results flagged for a closer look

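For FPKM of the 3 genes and the OVALY share of OVA, the gap between the extreme hen and its nearest neighbour was compared with the range of the group. This was done in 7 groups of 5 hens by Dixon's criterion, which chance exceeds in about 1 in 20 groups of normally distributed values. FPKM was taken without a log, and in translucent hens the SD of each of the 3 genes exceeded its mean. That rate therefore need not hold here, and the criterion was not applied on the log2 scale. OVALX in opaque hens, at 0 throughout, was left out. Translucent-1 exceeded it for OVA, where its 5374.86 FPKM stood above 801 FPKM in the next translucent hen. It exceeded it for OVALY as well, where its 219.92 FPKM stood above 47.9 FPKM in Translucent-4. Levels of OVA and OVALY varied together, so these results are not independent of each other. Translucent-1 also lay apart on the first principal component, and without it the log2 fold changes of edgeR were 2.93 for OVA and 2.997 for OVALY. For OVALX it was Translucent-5 that exceeded the criterion, with 0.91 FPKM from 20 reads, against 0.20 FPKM in Translucent-1 and 0 in the other translucent hens.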

How the results depend on the processing

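The log2 fold changes of OVA and OVALY were positive under all alternatives that gave them a value, 20 for OVA and 19 for OVALY, and passed the adjusted threshold under none of these, with adjusted p-values of 0.374 in DESeq2, 0.619 in the 6 hens numbered 1 to 3 and at least 0.990 elsewhere. At an unadjusted p of at most 0.05, OVA passed in 16 of 20 alternatives and OVALY in 19 of 19. OVA missed it without Translucent-1, without Translucent-1 and Opaque-5, in the hens numbered 1 to 3 and with the replicate block, with unadjusted p-values of edgeR from 0.0582 to 0.0903. The alternatives reuse the same hens, so the number passed is not repeated evidence. Over all genes, an unadjusted p under 0.05 was reached by 162 of 12858 with the replicate block and up to 990 of 12906 in the 6 hens. With the replicate block the log2 fold change was 4.42 for OVA and 4.74 for OVALY. Leaving out each hen in turn gave 2.93 to 6.41 for OVA and 2.997 to 5.84 for OVALY. The count of called genes was 0 in edgeR and limma under every setting and 4 in DESeq2. The count by the unadjusted criterion ran from 19, with at least 10 reads required in every hen, to 233 in the 6 hens. The OVALY to OVA difference of 0.52 turned to -0.86 with a pseudocount of 1, which moved the mean log2 ratio to -3.40 in translucent and -2.55 in opaque hens, and to -0.0208 with one of 0.1. It was 0.17 to 0.77 under the other alternatives, with an exact permutation p of 0.5 under the replicate block. The correlation of OVA with OVALY was 0.944 to 0.993. Same-numbered hens did not deviate together (mean r of -0.13 over 5 pairs), so the numbers pair no samples. OVALX entered 4 alternatives without the count filter and was called in 0 of them (adjusted p of 0.9998 or more). Its ratio tests and correlations had no value with 8 hens at 0 reads, so no adjustment over the 3 ratios was made. The alternatives without both Translucent-1 and Opaque-5, without Opaque-3 and Opaque-4, and without Translucent-1 and Opaque-4, were chosen after seeing the data.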
